A study of Homo sapiens with 8 samples.

Results

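The replication-dependent core histone genes encode the H2A, H2B, H3 and H4 proteins that package newly copied DNA. The members were the protein-coding genes whose current symbol starts with H2AC, H2BC, H3C or H4C followed by a number. This rule found 63 of the 58395 genes listed, with 17 H2A, 18 H2B, 13 H3 and 15 H4 genes. Of these, 49 lie on chromosome 6, 13 on chromosome 1 and 1 on chromosome 12. The rule used symbols and no measured value. The filter on low counts passed 42 of the 63 genes, another 12 had reads but did not pass, and 9 had no read in any library.

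RNA was measured in OCI-AML3, an established human acute myeloid leukaemia cell line, by sequencing of polysome RNA and of input RNA from the same lysates. Each of 4 groups held 2 libraries, namely polysome U, polysome CT, input U and input CT. The genotype label reads FBL knockdown for U and WT for CT, and the protocol names a hairpin against FBL (shFBL) and a control hairpin (shCT) carried by infected cells. Cycloheximide, an inhibitor of elongation that keeps ribosomes on mRNA, was given to all cells (100 µg/mL, 15 min) before lysis in 400 µL. Of the cleared lysate, 100 µL served as input and 290 µL was run on a 10% to 50% sucrose gradient cut into 14 fractions. The choice of gradient fractions for polysome RNA was not given in the sources used here. No label says whether 2 libraries of a group came from separate cultures, so p-values measure only the spread between these libraries, which may be technical.

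Replication-dependent histone mRNAs mostly carry no poly(A) tail. Their 3′ end is a short stem-loop bound by the stem-loop binding protein SLBP, which serves in 3′ processing, translation and decay, and they are abundant mainly in S phase. Many of these genes also have longer annotated transcripts that end at a polyadenylation signal, and such forms are known from differentiated and non-cycling cells. Whether the libraries were made from poly(A)-selected RNA was not given in the sources used here.

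FBL levels were checked first. FBL, the targeted gene, which encodes the nucleolar methyltransferase fibrillarin, was at 499 and 165 CPM (counts per mega-count of a library, after TMM scaling) in polysome U1 and U2 and at 498 and 163 CPM in polysome CT1 and CT2. In input it was at 253 and 84.2 CPM in U1 and U2 and at 250 and 88.1 CPM in CT1 and CT2. FBL was therefore low in the libraries numbered 2 and high in those numbered 1, under both labels. The edgeR log2 fold change of number 2 against number 1 was -1.60 ± 0.13 (SE) in polysome RNA (adjusted p = 0.00264) and -1.54 ± 0.13 in input (adjusted p = 0.00369). That of U against CT was 0.01 and -0.01, with an adjusted p of 1 in both. FBL goes against the labels, so the groups are called by their labels, and the number was compared as well as the label.

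Depth over all genes was 22.2 to 40.8 mega-counts (M) per polysome library, with U2 the shallowest, and 30.8 to 43.1 M per input library. The 10 myeloid markers summed to 3655 to 4184 CPM in polysome and 2684 to 3076 CPM in input libraries. The 10 erythroid and megakaryocyte markers summed to 18.8 to 32.5 and 14.0 to 24.1 CPM, and the 10 lymphoid markers to 8.07 to 13.5 and 7.21 to 11.9 CPM, in polysome and input. All 10 myeloid markers passed the filter on low counts, as did 4 of the 10 erythroid and megakaryocyte markers and 4 of the 10 lymphoid markers. CD3D, CD3E, CD2, MS4A1, PF4 and GP9 were among those at 0.

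The stem-loop is the feature these mRNAs share. Its 16-base consensus, a paired stem of 6 bases around a loop of 4, was searched after the stop codon in GENCODE release 29 transcripts (GRCh38), on the transcript's own strand. It was found in 31 of the 33 genes that have an annotated 3′ UTR, 22 to 67 bases after the stop codon. Within the first 100 bases after the stop codon, the same consensus occurred in 10 of 18765 other genes (0.053%). The sequences below are shown because H2BC8 and H3C10 were lower in polysome RNA, while the others are among the most abundant members of each type. Capitals mark the stem-loop.

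H2AC6 (chr6:26124664-26124689, plus strand): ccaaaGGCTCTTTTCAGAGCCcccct
H2AC25 (chr1:228457364-228457389, minus strand): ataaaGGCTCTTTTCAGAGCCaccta
H2BC5 (chr6:26158582-26158607, plus strand): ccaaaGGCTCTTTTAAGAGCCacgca
H2BC8 (chr6:26216213-26216238, minus strand): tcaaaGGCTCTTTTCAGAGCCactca
H3C10 (chr6:27810511-27810536, plus strand): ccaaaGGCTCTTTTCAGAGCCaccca
H4C8 (chr6:26285126-26285151, minus strand): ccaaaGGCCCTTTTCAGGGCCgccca

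The loop letters of H2BC5 differed from those of the other H2A, H2B and H3 genes shown. The H4 gene H4C8 differed from all of them in its stem. The stem of all 8 H4 genes with a match began with GGCCCT, whereas all H2A, H2B and H3 genes with a match began with GGCTCT. H2BC8 and H3C10 had the same stem-loop as H2AC6 and H2AC25, and only the flanking letters differed.

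The annotation also gave 20 genes a long transcript that reaches at least 200 bases past the stop codon and holds AATAAA or ATTAAA in its last 40 bases, called a poly(A)-type end here. Such an end was found in 14666 of 17841 other genes with a transcript that long (82.2%). Another 13 members had a different 3′ UTR, and 30 had a model of the coding sequence only. The last 30 bases of the long forms of 5 genes are shown with the signal in capitals, since these genes include the most abundant ones with such an end and 1 of the genes lower in polysomes.

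H2AC6 (chr6:26139073-26139102, plus strand): agcctggcatgaggtAATAAAaggtaatgc
H2AC25 (chr1:228456979-228457008, minus strand): tctgatATTAAAagtatttatgatctctaa
H2BC5 (chr6:26171320-26171349, plus strand): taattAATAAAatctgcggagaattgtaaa
H2BC21 (chr1:149884459-149884488, minus strand): gttattAATAAAgttaccaattaatttaaa
H3C10 (chr6:27811271-27811300, plus strand): atgactaAATAAAatctgtataatccccac

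The ends of H2AC25, H2BC21 and H3C10 belong to single-exon transcripts that run on past the stem-loop. The long transcript of H2BC5 is spliced, in 2 exons, and does not hold the stem-loop.

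Promoter letters parted the histone types. In the 250 bases before the RefSeq start (GRCh38.p14, 58 members matched), CCAAT on either strand was found in 16 of 16 H2A, 18 of 18 H2B and 11 of 11 H3 genes but in 3 of 13 H4 genes, against 32.0% of all 35116 promoters. The octamer ATTTGCAT, the letters bound by POU2F1, was found in 11 H2A, 14 H2B, 1 H3 and 0 H4 genes, against 1.63% of all promoters. TATAAA was found in 39 of the 58, against 10.7%. H2AC20, the most abundant member, and H2BC21 are divergent neighbours, and their windows cover nearly the same bases. The H2AC20 window is printed on its plus strand, with the 3 motifs in capitals on either strand, none overlapping another. Matches describe these letters only.

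H2AC20 promoter (chr1:149886668-149886917, plus strand): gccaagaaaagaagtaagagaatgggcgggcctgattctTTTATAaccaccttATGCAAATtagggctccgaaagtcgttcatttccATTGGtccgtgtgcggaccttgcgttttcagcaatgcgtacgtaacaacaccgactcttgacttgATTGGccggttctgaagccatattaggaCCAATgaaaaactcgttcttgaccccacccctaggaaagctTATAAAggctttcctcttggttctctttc

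The core histone genes held a very small share of the reads. Their counts summed to 2774 and 1738 in polysome U1 and U2, to 1949 and 2953 in polysome CT1 and CT2, and to 2878, 4248, 3298 and 3195 in input U1, U2, CT1 and CT2. That was 0.00507% to 0.00784% of gene counts in polysome and 0.00900% to 0.00985% in input libraries. The exact 95% binomial intervals reached from 0.00484% to 0.00822% over the polysome libraries and from 0.00870% to 0.0102% over the input libraries, and they cover counting error only. The shares of the 2 fractions did not overlap. Of 15 other abundant RNAs without a poly(A) tail, 13 had no read in any library. Only RN7SL2, an RNA of the signal recognition particle, passed the filter, at 0.567 ± 0.760 CPM in polysome and 20.2 ± 2.57 CPM in input RNA (SD, n = 4 each).

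On the TMM scale the 63 genes summed to 77.3 and 83.8 CPM in polysome U1 and U2 and to 56.4 and 81.4 CPM in polysome CT1 and CT2. They summed to 85.4, 91.0, 82.3 and 86.9 CPM in input U1, U2, CT1 and CT2. Polysome CT1 was the lowest of all 8, and U2 in polysome lay above CT1 in input, so the sums overlapped. The summed H2A genes averaged 39.8 ± 6.95 CPM in polysome and 43.6 ± 2.49 CPM in input libraries (SD, n = 4 each). Summed H2B genes averaged 25.6 ± 6.45 and 32.9 ± 2.97 CPM, H3 genes 3.40 ± 1.26 and 4.62 ± 0.790 CPM, and H4 genes 5.91 ± 3.46 and 5.30 ± 0.315 CPM, in polysome and input. The nucleosome holds the 4 core histones in equal amounts, but the counted H3 and H4 reads were far fewer than the H2A and H2B reads in every library. Relative to its mean, the H4 sum had the widest spread of the 4 types between polysome libraries, at 2.12, 9.79, 4.08 and 7.66 CPM in U1, U2, CT1 and CT2.

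**Figure D1:**
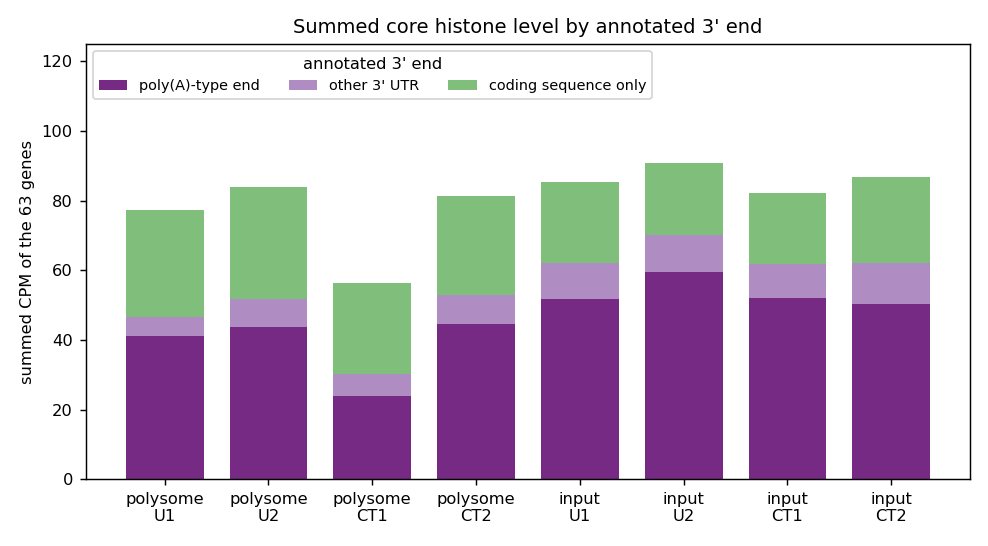
Summed level of the 63 core histone genes in each library (CPM after TMM, bars from 0), with colours for the annotated 3′ end of the genes. Genes with a poly(A)-type end held 24.1 to 44.6 CPM in polysome and 50.4 to 59.7 CPM in input libraries, and genes with a coding sequence model only held 26.1 to 31.9 CPM in polysome and 20.5 to 24.6 CPM in input libraries.

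The genes were also grouped by their annotated 3′ end, with levels in CPM that are not corrected for length. Of the 20 genes with a poly(A)-type end, 9 reached a mean of 1 CPM over the 8 libraries, against 2 of 13 with another 3′ UTR and 2 of 30 with a coding model only. The 20 genes summed to 38.4 ± 9.69 CPM in polysome and 53.6 ± 4.15 CPM in input RNA (SD, n = 4 each), and the groups did not overlap. The 13 genes with another 3′ UTR summed to 6.97 ± 1.42 and 10.5 ± 0.934 CPM in polysome and input, also without overlap. The 30 coding models summed to 29.3 ± 2.54 and 22.3 ± 1.96 CPM, with polysome above input in every library. H2AC20 made up most of that last sum, and without it the other 29 coding models summed to 8.13 to 13.7 CPM in polysome and 6.64 to 10.4 CPM in input libraries, which overlapped. Without H2BC8 the other 12 genes of the second class summed to 1.88 to 8.10 CPM in polysome and 4.34 to 6.21 CPM in input libraries, also with overlap. Without H2AC25 the other 19 genes with a poly(A)-type end summed to 17.4 to 34.8 CPM in polysome and 35.0 to 46.5 CPM in input libraries, which did not overlap by a narrow margin. Reads in a 3′ UTR that the annotation lacks are not counted for these 30 genes, which include H2AC20, H2BC12 and H2AC4.

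A few genes carried most of the reads. The top 3 genes of a library held 44.2% to 57.6% of the core histone counts in polysome and 41.6% to 49.7% in input libraries. H2AC20, an H2A gene of the chromosome 1 cluster, had 19.4, 22.3, 18.0 and 14.9 CPM in polysome U1, U2, CT1 and CT2, and 12.9, 14.2, 11.4 and 15.7 CPM in input. H2AC25, an H2A gene elsewhere on chromosome 1, had 12.1, 12.6, 6.69 and 9.81 CPM in polysome and 16.9, 13.2, 12.7 and 14.6 CPM in input libraries in the same order. H2BC5, an H2B gene of the chromosome 6 cluster, had 13.0, 8.10, 4.72 and 11.3 CPM in polysome and 10.8, 17.8, 10.2 and 9.19 CPM in input libraries. All 3 had reads in every library, and the polysome and input values of H2AC20 and H2BC5 overlapped.

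H2AC6 and H2BC21 followed. H2AC6 had 2.62, 7.52, 2.49 and 5.62 CPM in polysome U1, U2, CT1 and CT2 and 7.09, 9.76, 7.34 and 6.53 CPM in input. H2BC21 had 4.96, 6.27, 1.85 and 7.14 CPM in polysome and 5.46, 6.92, 6.27 and 6.74 CPM in input libraries. The highest polysome value lay within the input range for H2AC6 and just above it for H2BC21, and the fractions overlapped for both genes. The most abundant H3 gene was H3C10 and the most abundant H4 gene H4C8, at means of 1.35 and 1.34 CPM over the 8 libraries. H4C8 had 0.613, 0.965, 1.505 and 1.82 CPM in polysome and 1.25, 2.01, 1.17 and 1.39 CPM in input libraries. Among the 42 that passed, the means ran from 0.113 to 16.1 CPM, and H2AC20 stood at percentile 58.5 of all genes tested.

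Exon lengths differ among the genes, so levels were also compared per kilobase of exon. In input RNA, H2AC20 was at 34.8, H2AC25 at 16.05, H2BC5 at 13.8 and H2BC12 at 7.06 CPM per kb. H2AX and H1-10, from a list of histone variants outside the rule, were at 401 and 547 CPM per kb in the same libraries. In polysome RNA, H2AC20 was at 47.8, H2AC25 at 11.5, H2BC5 at 10.7 and H2BC12 at 9.14 CPM per kb, against 699 for H2AX and 821 for H1-10. H2AC20 and H2BC12 stand on coding models of short length, and H2AC25 and H2BC5 on longer ones with a 3′ UTR. Per kb of coding sequence, H2AC25 was at 36.8 and H2AC20 at 35.0 in input RNA, so their order depends on which length is used.

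**Figure D2:**
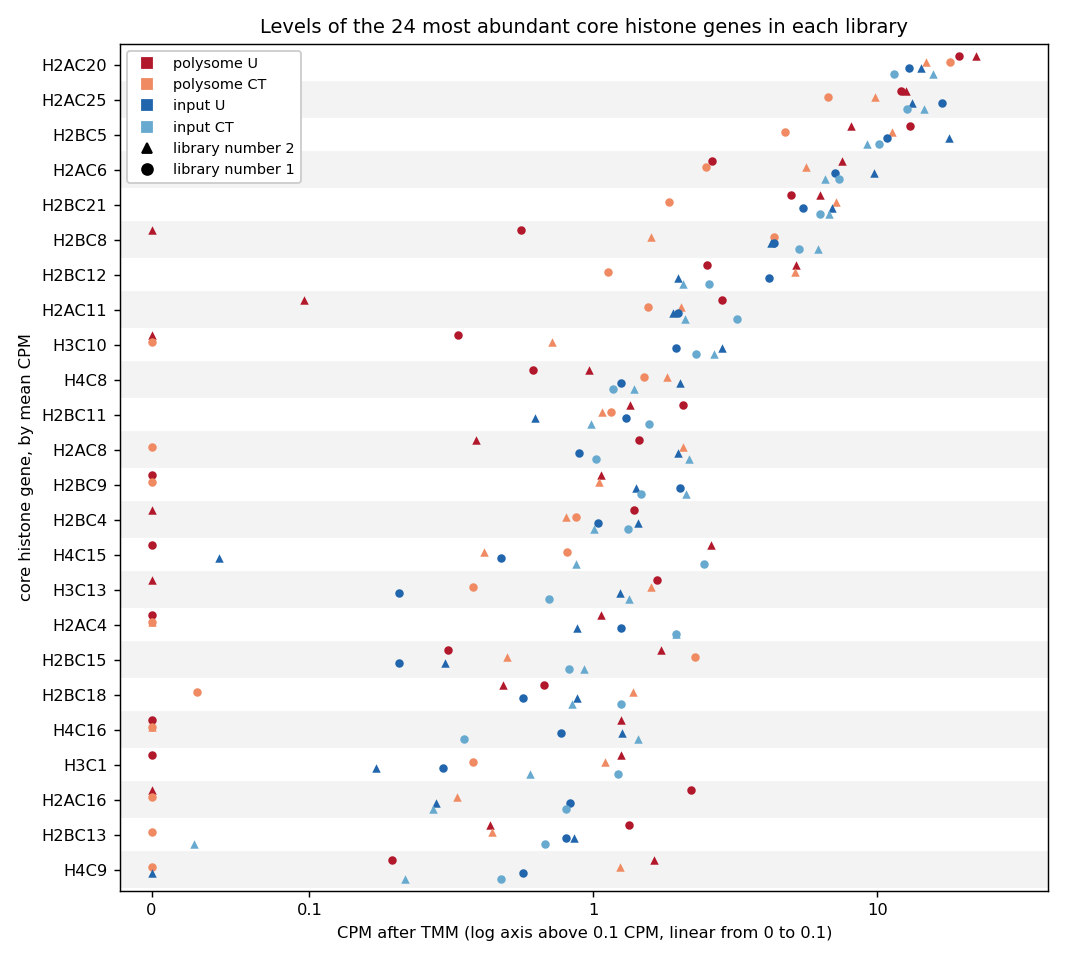
Level of the 24 most abundant core histone genes in each library (CPM after TMM, log axis above 0.1 CPM and linear below); colours are the 4 groups and symbols the library number. H2AC20 lies between 11.4 and 22.3 CPM in all 8 libraries, while H2BC9, H4C16 and H2AC4 are among the plotted genes with polysome libraries at 0.

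Below these genes, reads came unevenly in polysome libraries. H2AC8, an H2A gene, had 52, 8, 0 and 75 reads in polysome U1, U2, CT1 and CT2 and 30, 93, 41 and 80 reads in input. H2BC4, an H2B gene, had 50, 0, 30 and 29 reads in polysome and 35, 67, 53 and 37 reads in input libraries. H3C13, an H3 gene, had 60, 0, 13 and 58 reads in polysome and 7, 58, 28 and 49 reads in input. Each of the 3 was at 0 in 1 polysome library and at 50 or more reads in another.

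H2AC11 and H2BC11, an H2A and an H2B gene that are neighbours on chromosome 6, had reads in every library. H2AC11 had 2.84, 0.0965, 1.56 and 2.04 CPM in polysome U1, U2, CT1 and CT2 and 1.99, 1.91, 3.20 and 2.09 CPM in input. H2BC11 had 2.06, 1.35, 1.16 and 1.07 CPM in polysome and 1.31, 0.621, 1.57 and 0.979 CPM in input libraries. Apart from H2AC11 in polysome U2, with 2 reads, both genes lay between 0.621 and 3.20 CPM. H2BC15, an H2B gene, ranged from 0.307 to 2.29 CPM in polysome and from 0.208 to 0.924 CPM in input. H3C1, an H3 gene, had no read in polysome U1 and 26, 13 and 40 reads in polysome U2, CT1 and CT2, against 10, 8, 49 and 22 reads in input U1, U2, CT1 and CT2. Reads of both genes thus differed several-fold between libraries of 1 fraction.

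The genes left out by the filter were at or near 0. The 9 genes without a read were H2AC1, H2AC15, H2BC1, H2BC3, H2BC10, H3C3, H3C4, H3C8 and H4C7, named because they account for this count. Among them H2AC1 and H2BC1 encode histones known from the testis. A count of 0 allows up to 3 reads, or 0.0642 to 0.145 CPM depending on the library. The 12 genes with reads that did not pass had means of at most 0.222 CPM, while the lowest mean that passed was 0.113 CPM. The filter asks for reads in several libraries, so these ranges overlap.

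Of the 42 genes that passed the filter, 15 and 17 had no read in polysome U1 and U2, and 14 and 4 had none in polysome CT1 and CT2. In input, 2, 4, 4 and 5 had none in U1, U2, CT1 and CT2. Among all 16503 genes that passed, 9.35% to 15.7% were at 0 in a polysome library and 2.35% to 2.88% in an input library. A polysome library at 0 beside another with 20 or more reads was seen for 24 of the 42, and the same in input for 1. Over all 16503 genes tested this was seen for 2224 and 452. Low genes show it more often, and the core histone genes are low. Of genes under 4 CPM, 34.9% of 6318 had it in polysome. Among the 37 core histone genes under 4 CPM it was 24, a larger share. Levels below that bound were not matched. The filter passed genes by their own counts, so these are descriptions of the genes that passed.

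**Figure D3:**
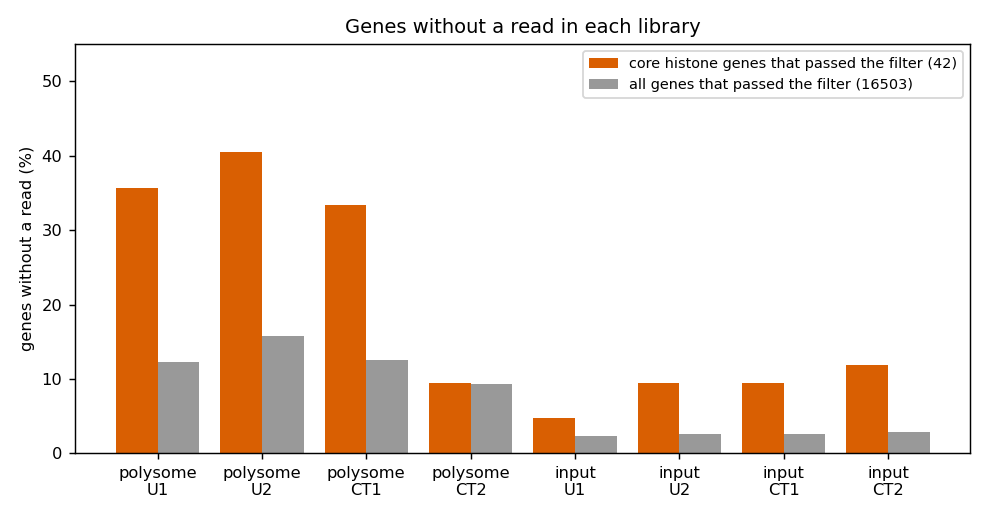
Share of genes without a read in each library, for the 42 core histone genes and for all 16503 genes that passed the filter on low counts (bars from 0). The core histone genes reached 33.3% to 40.5% in polysome U1, U2 and CT1 and 9.52% in polysome CT2, against 4.76% to 11.9% in the input libraries.

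Some genes cannot be told apart by their reads. Among the 63, 8 share an identical coding sequence with another one: H2AC18 with H2AC19, H3C14 with H3C15, H4C11 with H4C12 and H4C14 with H4C15. For 9 genes every stretch of 100 coding bases also occurs in another gene's transcript, and for 42 none does. Exons of another gene overlap those of 14. H4C15 is in all 3 classes, and its values of 0, 2.60, 0.810 and 0.413 CPM in polysome and 0.475, 0.0428, 2.45 and 0.870 CPM in input libraries (U1, U2, CT1, CT2) are uncertain for that reason. H2BC15 and H2BC18 have overlapping exons of other genes. H2BC8, H3C10, H2AC4, H2AC25 and H2AC6 have neither an overlap nor a shared stretch, and H2AC20 shares 17.4% of its stretches.

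Polysome RNA was compared with input RNA to ask which core histone mRNAs were enriched or depleted on polysomes. Of the 42 genes tested, 0 were higher and 3 were lower in polysome RNA: H2BC8, H2AC4 and H3C10, an H2B, an H2A and an H3 gene of the chromosome 6 cluster. Calls were made by edgeR's quasi-likelihood test at an adjusted p under 0.05 over all 16503 genes. Over all genes, 20.0% were higher and 22.8% were lower (42.9% either way), so both shares among the core histone genes lay below those of all genes. At an unadjusted p under 0.05 there were 9 core histone genes (21.4%), against 50.6% of all genes. These shares were not matched for level: 37 of the 42 genes were under 4 CPM, against 6318 of all 16503. The median log2 fold change of the 42 genes was -0.35, against -0.22 over all genes. Of the 42 values, 17 were positive and 25 negative. Each value averages the U and CT contrasts on the log scale, so a label group at 0 in polysome can set its sign. H4C2, an H4 gene, was at -2.41 with means of 0.418 CPM in polysome and 0.287 CPM in input. The median alone therefore does not show lower mean levels on polysomes. A fold change compares a gene with the rest of its library. In these bulk libraries fewer cells of a type and less RNA per cell cannot be told apart.

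H2BC8 had 0.557, 0, 4.34 and 1.60 CPM in polysome U1, U2, CT1 and CT2 and 4.33, 4.22, 5.29 and 6.20 CPM in input. Polysome CT1 lay just above input U1 and U2, and the other 3 polysome libraries lay below all input libraries. The log2 fold change was -2.37 ± 0.66 (SE, edgeR adjusted p = 0.0153). H2BC8 passed the threshold under every alternative that tested it (adjusted p at most 0.0406).

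H3C10 had 12, 0, 0 and 26 reads in polysome U1, U2, CT1 and CT2 and 66, 133, 92 and 98 reads in input. Every polysome library lay below every input library. In CPM the means were 0.263 ± 0.341 in polysome and 2.44 ± 0.396 in input RNA (SD, n = 4 each), and the log2 fold change was -3.25 ± 1.16 (SE, edgeR adjusted p = 0.0447). The adjusted p was 0.0720 with a correction for GC content and length and 0.0705 to 0.106 with any 1 input library left out, and 0.000419 with no filter on low counts.

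H2AC4 had 22 reads in polysome U2 and 0 in the other 3 polysome libraries, against 42, 41, 78 and 72 reads in input U1, U2, CT1 and CT2. Its polysome value in U2, 1.06 CPM, lay between those of input U2 and input U1, 0.878 and 1.25 CPM. The log2 fold change was -5.07 ± 1.54 (SE, edgeR adjusted p = 0.0258), and its size depends on the prior count because 3 libraries are at 0. H2AC4 passed the filter on low counts through its input libraries, where it is high, which limits what this call shows. Without polysome CT1, polysome CT2 or input U1 the adjusted p was 0.0529 to 0.0543, and with no filter it was 0.000416.

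**Figure D4:**
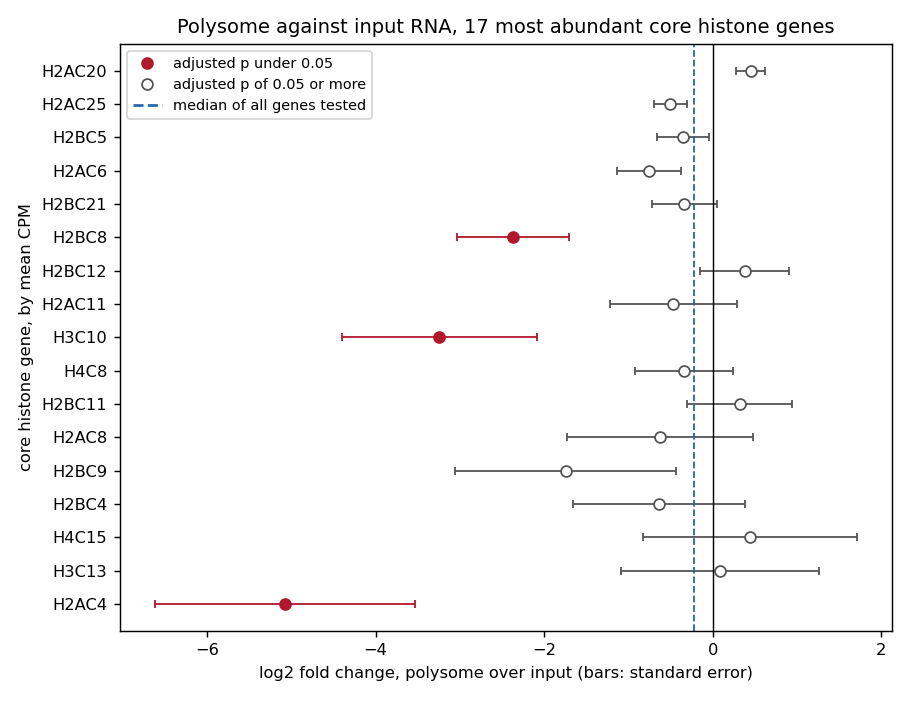
Log2 fold change of polysome over input RNA with its standard error, for the 17 most abundant core histone genes (edgeR, 4 libraries per fraction). H2BC8, H3C10 and H2AC4 (filled) passed an adjusted p of 0.05; H2AC20 at 0.45 lies right of the median of all genes at -0.22 and H2AC25 at -0.51 lies left of it.

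The most abundant genes had smaller standard errors and smaller fold changes. H2AC20 averaged 18.6 ± 3.07 CPM in polysome and 13.6 ± 1.84 CPM in input RNA (SD, n = 4 each), and its log2 fold change, 0.45 ± 0.17 (SE), missed the threshold (edgeR adjusted p = 0.0565). It passed with relative log expression scaling (adjusted p = 0.0444), with DESeq2 (0.0361) and without polysome U1 (0.0443), and the adjusted p reached 0.659 with the lysate block and the GC content and length correction together. H2AC25 averaged 10.3 ± 2.71 CPM in polysome and 14.4 ± 1.89 CPM in input RNA, and every polysome library lay below every input library. Its log2 fold change of -0.51 ± 0.19 (SE) missed the threshold (edgeR adjusted p = 0.0581). It passed with the GC content and length correction (-0.68, adjusted p = 0.0171), among genes of at least 10 CPM (0.0182) and without polysome CT2 (0.0264), with a range of 0.0161 to 0.199 over all alternatives.

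H2AC6 averaged 4.56 ± 2.45 CPM in polysome and 7.68 ± 1.43 CPM in input RNA (SD, n = 4 each; log2 fold change -0.76 ± 0.38 SE, edgeR adjusted p = 0.139). Input and polysome RNA of 1 title came from a shared lysate, and with the lysate as a replicate block the value was -0.89 with an adjusted p of 0.0360 (0.0113 to 0.953 over all alternatives). That fit called 4 genes lower, H2AC6 beside the 3 above, against 22.4% of all genes. H2BC5 (-0.35 ± 0.30), H2BC21 (-0.34 ± 0.38), H2BC12 (0.38 ± 0.53), H2AC11 (-0.47 ± 0.75) and H4C8 (-0.34 ± 0.58) did not pass, with edgeR adjusted p-values of 0.3804, 0.515, 0.600, 0.651 and 0.677.

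Groups without overlap were a smaller share of these genes than of all genes tested, and the shares were not matched for level. All 4 polysome libraries lay above all 4 input libraries for H2AC12 only, against 17.7% of all genes tested. They lay below for 3 genes, H2AC25, H2BC9 and H3C10, against 22.7%. H2BC9, an H2B gene, had 0, 22, 0 and 38 reads in polysome U1, U2, CT1 and CT2 and 68, 66, 59 and 78 reads in input. Both polysome libraries at 0 carried the number 1. H2AC12, H4C2 and H4C3 are named because of their values.

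The label was compared within each fraction to ask whether FBL knockdown, as labelled, went with core histone levels. In polysome RNA 0 of 42 core histone genes were called (edgeR), against 0.248% of all genes higher and 0.63% lower in U (0.879% either way). At an unadjusted p under 0.05 there were 7 (16.7%), 2 higher and 5 lower, against 18.1% of all genes. DESeq2 called 4, namely H4C16 and H2AC4 higher and H2BC8 and H4C2 lower, against 7.29% of all genes. H2BC8 had the smallest adjusted p, at 0.557 and 0 CPM in polysome U1 and U2, against 4.34 and 1.60 CPM in polysome CT1 and CT2. Both U libraries lay below both CT libraries, with a log2 fold change of -3.26 ± 0.99 (SE, edgeR adjusted p = 0.135). In input its U values, 4.33 and 4.22 CPM, lay below its CT values, 5.29 and 6.20 CPM (-0.43 ± 0.86, edgeR adjusted p = 1). The difference between these changes was -2.84 ± 1.29 (edgeR adjusted p = 0.773).

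H2AC20 averaged 20.8 CPM in polysome U and 16.4 CPM in polysome CT libraries, with both U values above both CT values (log2 fold change 0.34 ± 0.24 SE, edgeR adjusted p = 0.471). H2AC25 averaged 12.4 CPM in polysome U and 8.25 CPM in polysome CT libraries, also without overlap (0.58 ± 0.27, edgeR adjusted p = 0.292). For H2BC5, H2AC6 and H2BC21 the U and CT values overlapped in polysome RNA. Summed H2A genes were at 43.0 and 47.6 CPM in polysome U1 and U2, against 31.7 and 36.8 CPM in polysome CT1 and CT2. Summed H3 genes went the other way, at 3.34 and 1.83 against 3.53 and 4.91 CPM. The H2B and H4 sums overlapped between the labels. The genes that DESeq2 called higher rest on 1 library: H2AC4 had 22 and H4C16 26 reads in polysome U2 and both had 0 in polysome U1, CT1 and CT2.

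In input RNA 0 of 42 were called by edgeR or DESeq2, and 0 had an unadjusted edgeR p under 0.05, against 0.0% of all genes called by edgeR, 0.461% by DESeq2 and 4.51% at the unadjusted level. H2AC20 averaged 13.6 CPM in both input U and input CT libraries (log2 fold change 0.00 ± 0.24 SE). H2BC5 averaged 14.3 CPM in input U and 9.68 CPM in input CT libraries (0.57 ± 0.43, edgeR adjusted p = 1). The change of U against CT differed between polysome and input RNA for 0 of 42 genes (edgeR, smallest adjusted p = 0.767), against 0.0% of all genes. At an unadjusted p under 0.05 there were 4 (9.52%), against 6.34% of all genes.

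The number was compared because FBL followed it. In polysome RNA 0 of 42 core histone genes were called for number 2 against number 1 (edgeR), against 0.0182% of all genes. DESeq2 called 1, H2BC9, against 1.44% of all genes. At an unadjusted p under 0.05 there were 6 (14.3%), all higher in number 2, against 9.05% of all genes in either direction. The median log2 fold change was 0.53, against -0.01 over all genes. The 6 genes were H2AC4, H2AC6, H2BC9, H2BC12, H4C3 and H4C16. Of these, H2AC4 and H4C16 had polysome reads in U2 alone, and H4C3 had none in polysome U1 and CT1. With an edgeR adjusted p of 0.210, H2BC9 came nearest, at 22 and 38 reads in polysome U2 and CT2 and 0 in polysome U1 and CT1. In input it had 66 and 78 reads in U2 and CT2 and 68 and 59 reads in U1 and CT1.

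H2AC6 had 7.52 and 5.62 CPM in polysome U2 and CT2, against 2.62 and 2.49 CPM in polysome U1 and CT1. The groups did not overlap (log2 fold change 1.36 ± 0.38 SE, edgeR adjusted p = 0.387). H2BC12, an H2B gene, had 5.16 and 5.13 CPM in polysome U2 and CT2, against 2.51 and 1.13 CPM in U1 and CT1 (1.498 ± 0.58, edgeR adjusted p = 0.508). In input its order was the other way, at 1.99 and 2.07 CPM in U2 and CT2, against 4.15 and 2.55 CPM in U1 and CT1. H2AC20 averaged 18.6 CPM in number 2 and 18.7 CPM in number 1 polysome libraries (-0.01 ± 0.25, edgeR adjusted p = 1). Summed H4 genes were at 9.79 and 7.66 CPM in polysome U2 and CT2, against 2.12 and 4.08 CPM in polysome U1 and CT1. In input they were at 4.86 and 5.47 against 5.58 and 5.29 CPM, in the same order. The polysome U2 sum includes H4C15 at 2.60 and H4C14 at 0.965 CPM, which cannot be told apart by their coding reads. The H2A, H2B and H3 sums overlapped between the numbers in polysome RNA.

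In input RNA 0 of 42 were called for the number by edgeR or DESeq2 and 0 had an unadjusted edgeR p under 0.05, against 0.0121% of all genes called by edgeR and 0.121% by DESeq2. The change with the number differed between polysome and input RNA for 0 of 42 (edgeR, adjusted p of 1.00 for every member), against 0.0% of all genes. At an unadjusted p under 0.05 there were 5 (11.9%), all with a more positive change in polysome RNA, against 3.38% of all genes in either direction. Polysome U2 is also the shallowest library, at 22.2 M gene counts. Without it 0 core histone genes were called for the number in polysome RNA or for the difference (edgeR), and H2BC9 had an adjusted p of 0.0678 in polysome RNA.

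Factors that act on histone mRNA were measured in the same libraries. SLBP was at 93.5, 58.7, 81.4 and 88.1 CPM in polysome U1, U2, CT1 and CT2 and at 108, 86.4, 108 and 97.3 CPM in input (log2 fold change -0.31 ± 0.14 SE, edgeR adjusted p = 0.102). With the lysate block it passed, at -0.33 and an adjusted p of 0.0103 (0.0032 to 0.382 over all alternatives). Of the 30 processing and translation factors that passed the filter, 9 were higher and 6 lower in polysome RNA (median log2 fold change -0.03). Over all genes tested, 20.0% were higher and 22.8% lower. SYMPK, a scaffold of the histone cleavage complex, was at 507 ± 12.1 CPM in polysome and 242 ± 15.7 CPM in input RNA. NPAT, the activator of histone gene transcription, was at 4.90 ± 1.75 and 13.4 ± 1.29 CPM, and ERI1, an exonuclease of histone mRNA ends, at 18.8 ± 3.15 and 39.4 ± 3.28 CPM, in polysome and input. The list had 0 calls for the label or the number.

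Related histone genes were measured in the same libraries. Of the 10 listed histone variants that passed, 3 were higher and 1 was lower in polysome RNA (edgeR). The 3 higher ones were H2AX, H2AJ and H1-10. H2AX was at 1128 ± 157 CPM in polysome and 648 ± 86.3 CPM in input RNA (SD, n = 4 each). Of the 4 linker histone genes that passed, which share the stem-loop type of mRNA, H1-4 was higher, at 4.03 ± 1.88 and 1.16 ± 0.383 CPM, and H1-2 lower, at 11.9 ± 2.16 and 21.3 ± 2.40 CPM, in polysome and input. Among 21 chaperones 10 were higher and 5 lower in polysome RNA, and among 40 S phase genes 17 were higher and 10 lower. Beside each of these lists, 20.0% of all genes tested were higher and 22.8% lower, not matched for level. In polysome RNA 0 variants, linker histones and chaperones were called between U and CT. The 2 S phase genes CLSPN and E2F1 were called lower in U (edgeR adjusted p = 0.0363 and 0.0405). The myeloid marker CD14 was called higher in U (0.0363). These calls depend on the processing. With the GC content and length correction, or with polysome libraries alone, 0 of all genes tested were called for this comparison (edgeR).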

How the data were processed

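Each deposited file lists unnormalized counts of reads per gene. Per the submitters' processing notes, the authors used Trimmomatic 0.38, Bowtie2 and HTSeq 0.11.2 on GRCh38. Bowtie2's version, the annotation release, read layout, strand and multi-mapping settings were not given in the sources used here, so reads of overlapping or near-identical histone genes may be lost or misplaced, and antisense reads cannot be told apart. Lines that name no gene held 13.2% to 15.0% of reads (5.72% to 6.79% ambiguous between genes) and were left out.

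The counts were analysed by edgeR 4.0.16 under R 4.3.3 (TMM, filterByExpr, quasi-likelihood test, Benjamini-Hochberg adjustment over 16503 genes), all 8 libraries together. A model of fraction and label, and another of fraction and number, each left 4 residual degrees of freedom. A library counts as 1 sample. The fits were tested on simulated data with changes set only in genes of at least 1 CPM, a mean that 13 of the 63 members reached. Alternatives were other scalings and filters, DESeq2 1.42.0, a GC content and length correction, replicate blocks, fits of a fraction alone and each library left out. Libraries of 1 title share a lysate per the protocol, and deviations of same-numbered libraries correlated at 0.183 to 0.473 between groups (8159 genes).

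Symbols matched 59 members by identifier and 4 through the GENCODE release 29 name. Named members were at most the 24 of highest mean CPM, and those called in a comparison. Genes of other lists were named if called, with SLBP and FBL always. Members, lists and tests were chosen with earlier results of these data known. Some results for genes of these lists are not reported here.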

Additional observations from a re-analysis of the deposited data

How the results depend on the processing

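In polysome against input RNA 3 genes were called, all lower. Shares of all genes in brackets here hold calls in either direction. Lower calls alone were 19.0% of all genes with no filter and 24.2% with DESeq2. H2AC20, positive in the main fit, passed with DESeq2, so the counts need not hold lower calls only. With no filter on low counts the count was 5 (33.6% of all genes called). It was 1 among genes of at least 10 CPM (H2AC25, with 3 members tested, 69.7%) and 6 with DESeq2 (46.0%). It ran from 1 to 7 with 1 library left out. It was 6 without polysome CT2 (37.5%), 7 without polysome U1 (43.5%), 7 without polysome U2 (41.1%) and 1 (H2BC8) without input U1 (31.1%). For U against CT in polysome RNA, with 0 calls, no filter gave 3 of 54 (4.95% of all genes), DESeq2 gave 4 of 42 (7.29%) and leaving out a library gave 0 to 4, the highest without polysome U1 (4 of 47, against 8.21%). For number 2 against number 1 in polysome RNA, with 0 calls, no filter gave 1 (1.18%), DESeq2 gave 1 (1.44%) and leaving out a library gave 0 to 2, the highest without polysome CT2 (2 of 48, against 1.61%). The cause was not tested. With the replicate block the count for polysome against input was 4, and 4 with the GC content and length correction added (H2AC25 in place of H2AC6). The other comparisons had 0 calls under the block, and pairing ended no call. The summed input level of the 63 genes was 118 CPM per kb of exon and 219 per kb of coding sequence. The latter keeps reads in 3′ UTRs but leaves out their length. Where a lone library remained in a group it was assumed to vary like the others. No called value changed sign under these alternatives. Genes under 1 CPM rest on few reads per library (1 read is worth 0.0214 to 0.0482 CPM), which limits them.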
